A study of Drosophila melanogaster with 20 samples.

Results

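*RapGAP1*, *siz*, *DAAM* and *Dscam1* are 4 of the genes that the study predicted as direct targets of the proneural bHLH transcription factor (TF) Atonal (Ato), and their products act on small GTPases, actin or the cell surface. Their members on the array are the probe sets, sets of short probes read together, whose annotation names only that gene. There are 9 of them among 18769 tested: 4 for *RapGAP1*, 2 for *siz*, 1 for *DAAM* and 2 for *Dscam1*. The 4 genes stand among 11982 genes that have such a probe set. The study also tested a candidate enhancer fragment of each gene with a reporter in flies. It scored the fragments of *RapGAP1*, *siz* and *Dscam1* as active in Ato-dependent tissue, and that of *DAAM* as negative.

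Ato selects the R8 cell, the founder photoreceptor of each ommatidium in the fly retina, and R8 recruits the other photoreceptors around it. The zinc finger TF Senseless (Sens) acts downstream of Ato in R8. A new photoreceptor changes shape, sends out an axon and sorts its contacts, steps that use the actin cytoskeleton, adhesion and guidance receptors. RapGAP1 is a GTPase activating protein that switches off the small GTPase Rap1, a regulator of cell adhesion. Siz, also called Schizo or Loner, is a guanine nucleotide exchange factor that switches on Arf GTPases and is known for its part in the fusion of myoblasts. DAAM is a formin, a protein that nucleates and elongates unbranched actin filaments and that is needed for axon growth in the fly. Dscam1 is a cell surface receptor of the immunoglobulin superfamily whose alternative exons give a very large number of isoforms, and it serves self-avoidance of neurites and axon guidance.

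The RNA was that of dissected eye-antennal discs, the larval tissue of *Drosophila melanogaster* that forms the adult eye and antenna, read on 20 Affymetrix Drosophila 2.0 arrays, 1 for each sample. The 8 controls are 2 arrays each of the wild type CantonS, of UASato alone, of the driver atoGal4 (NP6558) alone and of the driver Gal4/7 alone. Ato gain of function (GOF) has 3 arrays of Gal4/7 × UASato and 3 of atoGal4 × UASato. Ato loss of function (LOF) has 3 arrays whose line is labelled ato-/-, discs mutant for *ato* on both chromosomes, taken from an ato1/hshid stock that was heat-shocked on 3 consecutive days from the first instar, and Sens GOF has 3 arrays of atoGal4 × UASsens. Larvae of every line grew at 18 °C and spent the last 24 h before dissection at 28 °C. No control array carries UASsens, ato1 or hshid, no heat shock is named for the controls, and the cells in which Gal4/7 is active are not given in the sources used here. The arrays of a line are described as biological or independent repeats. All 4 genes belong to the set that the study drew from the Ato GOF arrays, and *DAAM* is also predicted from the Ato LOF set. Their rise in Ato GOF is therefore a description and no independent evidence of its direction. The same holds for the fall of *DAAM* in Ato LOF.

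The perturbed genes followed most of the labels. On the log2 scale of the deposited values *ato* lay between 11.30 and 12.61 on the 6 Ato GOF arrays and between 9.27 and 10.01 on the 8 controls, and *sens* lay between 11.68 and 12.18 in Sens GOF against 7.98 to 8.70 in the controls. In Ato LOF the *ato* transcript measured 9.99 to 10.35, so its level is no check of that label. The pan-neuronal gene *elav* measured 8.18 to 8.99 in Ato LOF and 9.94 to 10.45 in the controls. On Ato LOF arrays 1, 2 and 3 *sens* measured 6.86, 8.11 and 4.50, so it varied widely and array 2 lay within the range of the controls. Sens GOF arrays 1 and 2 stood apart from all other pairs of the same line: the SD of their differences over probe sets was 0.15, against 0.32 to 0.76 in the other 15 pairs. The study describes the Sens GOF samples as biological replicates. Because these arrays are so alike, Sens GOF results for the 4 genes and the lists of their partners are also given with the mean of arrays 1 and 2 as 1 array. So are the calls of the cell type markers named for Sens GOF. The array medians lay between 5.36 and 5.50.

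The brightest probe set stood for its gene. Over the 20 arrays these averaged 9.30 for *RapGAP1* (1624122_a_at), 10.03 for *siz* (1626591_at), 9.89 for *DAAM* (1629015_a_at) and 9.28 for *Dscam1* (1637619_s_at), all far above the median probe set at 5.47. The suffix _s_at marks probes that may also match transcripts of other genes, so the value of *Dscam1* could include them. The other 5 probe sets averaged 3.95 to 5.55. Which exons any of the 9 reads was not analysed here, and levels of different probe sets are not compared with each other as amounts of RNA.

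In Ato LOF discs all 4 genes were lower than in the controls, *DAAM* by the most. *DAAM* measured 8.93, 8.51 and 9.19 on the 3 Ato LOF arrays, and its 8 controls lay between 9.80 and 10.14 with a median of 10.05. Every Ato LOF array lay below every control, and on the log2 scale the level fell by 1.13, with an SE of 0.13 (limma adjusted p = 0.000293), which is 2.18-fold. *RapGAP1* measured 8.43, 8.34 and 8.52 against 8.99 to 9.35 in the controls, with a median of 9.27. The groups did not overlap, and the level of this Rap1 inhibitor fell by 0.81 (SE 0.08, adjusted p = 0.000154), or 1.76-fold.

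For *siz* the Ato LOF arrays gave 9.53, 9.33 and 9.65 and the controls 9.96 to 10.28, with a median of 10.07. The groups did not overlap here either, and transcripts of this Arf exchange factor fell by 0.59 (SE 0.09, adjusted p = 0.00175), or 1.51-fold. *Dscam1* measured 8.36, 8.38 and 8.92 against 8.87 to 9.52, with a median of 9.30. Its Ato LOF array 3 lay just above CantonS array 1, so the groups overlapped. The fall of 0.72 (SE 0.15, adjusted p = 0.0102), or 1.65-fold, passed the test. Without Ato LOF array 1 or array 2 it no longer did (adjusted p = 0.0625 and 0.0618).

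The count of 4 of 4 genes lower stands beside 10.1% of all genes called lower in this comparison, and beside 18.6% of the 3253 genes that, like these 4, average at or above 9 on the log2 scale. It includes *DAAM*, which the study also drew from these Ato LOF arrays as a lower gene. Of the 4 genes 3 had every Ato LOF array below every control, as had 9.26% of all genes. The median change of the 4 genes was -0.77, and that of all genes was -0.02. Of the 9 probe sets 6 were lower, against 8.6% of all probe sets. The dim ones among these were 1626479_at of *RapGAP1*, which fell by 0.58 (SE 0.13, adjusted p = 0.0169), and 1629649_at of *siz*, which fell by 0.37 (SE 0.10, adjusted p = 0.0405). Both of these lost the call without any 1 of the Ato LOF arrays, at adjusted p = 0.0541 to 0.0662 for 1626479_at and 0.0503 to 0.174 for 1629649_at. The same 8 controls serve the comparisons with Ato GOF, Ato LOF and Sens GOF. Against the 2 CantonS arrays alone the 4 genes differed by -0.46 to -1.07 and no call held (adjusted p = 0.0691 to 0.325, with 3 of 4 at an unadjusted p under 0.05).

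Markers of cell types moved with this comparison. The summed level of 9 markers of R8 and neurons lay between 11.62 and 12.03 in Ato LOF and between 12.45 and 12.82 in the controls, and 7 of the 9 were lower. That of 5 eye disc markers lay between 11.94 and 12.20 against 12.79 to 13.35, with 3 of 5 lower. Lower too were 1 of 7 hemocyte markers (*NimC1*, by 2.00), 1 of 5 glial markers (*moody*, by 0.55) and 1 of 4 neuroblast markers (*dpn*, by 0.47), but the summed levels of these 3 lists overlapped the controls. In bulk discs fewer cells of a type and less RNA per cell cannot be told apart. The part of these shifts, and of the heat shock, in the lower level of the 4 genes was not tested.

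**Figure D1:**
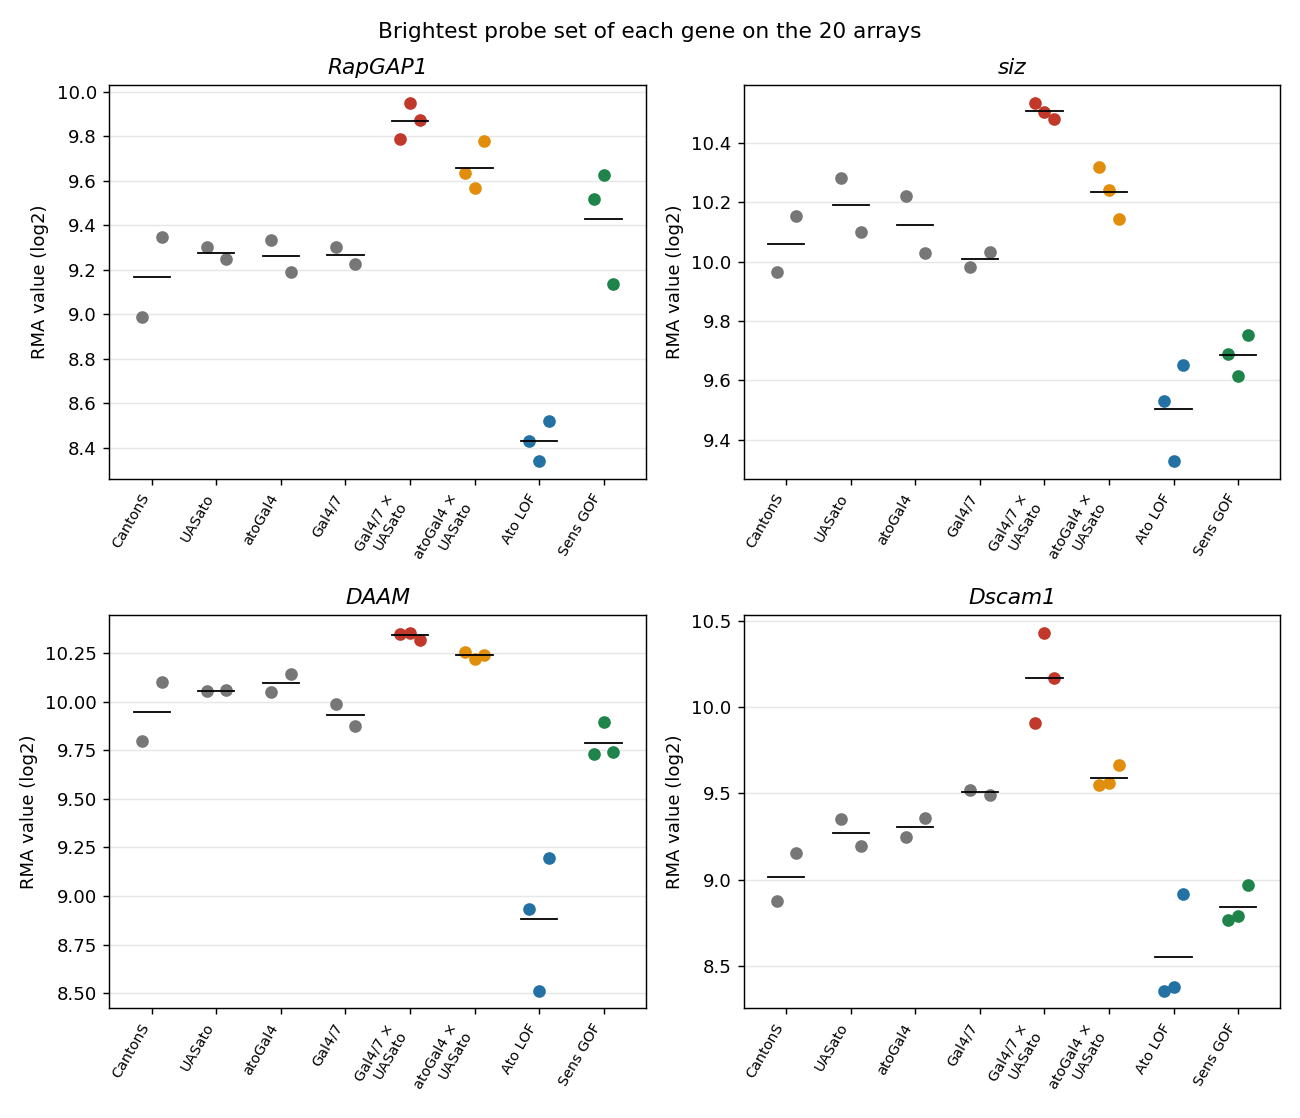
Deposited log2 values of the brightest probe set of each gene on the 20 arrays, by line. Points are arrays, black bars are line means, and the vertical axes differ between panels. The 3 Ato LOF arrays (blue) are lowest for *RapGAP1* and *DAAM*, and the 3 arrays of Gal4/7 × UASato (red) are the highest for all 4 genes.

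When Ato was overexpressed with Gal4/7, all 4 genes had every array above every control, as had 4.06% of all genes, and 3 of the 4 passed the test. *Dscam1* measured 9.91, 10.43 and 10.17 against at most 9.52 in the controls. The 3 arrays spread widely, array 2 being the highest, and the mean rose by 0.90 (SE 0.14, adjusted p = 0.0065), or 1.86-fold. Without array 2 the difference was 0.76 with an adjusted p of 0.0613. *RapGAP1* measured 9.79, 9.95 and 9.87 against at most 9.35 and rose by 0.63 (SE 0.08, adjusted p = 0.00149), or 1.54-fold.

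*siz* measured 10.53, 10.50 and 10.48 with Gal4/7 × UASato, arrays closer to each other than those of any other line with 3 arrays, against at most 10.28 in the controls. It rose by 0.41 (SE 0.08, adjusted p = 0.0169), or 1.33-fold. Without any 1 of the 3 arrays it lost the call (adjusted p = 0.0653 to 0.0972). *DAAM* measured 10.35, 10.35 and 10.32 against at most 10.14, a difference of 0.33 (SE 0.08) that just missed the threshold (adjusted p = 0.0541). Without CantonS array 1 or atoGal4 array 2 the difference for *DAAM* passed (adjusted p = 0.042 and 0.0473).

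In this comparison 1.96% of all genes and 1.08% of the bright ones were called higher. The median change was 0.52 for the 4 genes and 0.01 for all genes. By limma 0 of the 5 dim probe sets passed (0 at an unadjusted p under 0.05), and 4 of these had a fitted difference below 0, between -0.16 and -0.02. Measured against the Gal4/7 and UASato arrays alone, the 4 genes differed by 0.60 for *RapGAP1*, 0.41 for *siz*, 0.35 for *DAAM* and 0.78 for *Dscam1*, and the call of *RapGAP1* (adjusted p = 0.012) was kept. Markers of hemocytes, the blood cells of the larva, were higher in 3 of 7, *NimC1*, *Hml* and *eater*, and their summed level lay between 12.33 and 13.06 against 10.98 to 11.90 in the controls. For the 9 markers of R8 and neurons the sum lay between 13.24 and 13.43, above all controls, with 4 of 9 higher. The eye disc gene *so* and the glial gene *moody* were lower, 1 of 5 in each list, and both summed levels overlapped the controls. The summed level of 6 salivary gland genes ranged from 8.04 to 16.56 over these 3 arrays and from 8.58 to 16.57 over the controls. The part of these cells in the rise of the 4 genes was not tested.

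With the atoGal4 driver the 4 genes lay between the controls and the Gal4/7 arrays, and none passed the test. *RapGAP1* measured 9.63, 9.57 and 9.78, all above the controls, a difference of 0.42 (SE 0.08, adjusted p = 0.131). *DAAM* measured 10.25, 10.22 and 10.24, again all above the controls, a difference of 0.23 (SE 0.08, adjusted p = 0.481). *Dscam1* measured 9.55, 9.56 and 9.66 and lay just above the highest control, a difference of 0.32 (SE 0.12, adjusted p = 0.585). *siz* measured 10.32, 10.24 and 10.14, within reach of the controls, a difference of 0.14 (SE 0.08, adjusted p = 0.797). By limma's test 0 of 4 genes were called, 3 of 4 had an unadjusted p under 0.05, and 0.0835% of all genes were called higher. Of the 4 genes 3 had every array above every control, as had 2.16% of all genes. The summed level of the R8 and neuron markers lay between 12.98 and 13.05, above all controls, with 1 of 9 higher. That of 3 muscle genes lay between 8.52 and 9.17, below the controls at 9.18 to 11.28, with 0 of 3 called by limma and 2 at an unadjusted p under 0.05. The part of either in the levels of the 4 genes was not tested.

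The difference between the drivers was tested itself, as the change of atoGal4 × UASato from atoGal4 minus the change of Gal4/7 × UASato from Gal4/7. It was -0.21 for *RapGAP1* (95% interval -0.52 to 0.10), -0.39 for *siz* (-0.67 to -0.11), -0.27 for *DAAM* (-0.50 to -0.03) and -0.37 for *Dscam1* (-0.82 to 0.08). After adjustment 0 of 4 passed (adjusted p = 0.44 to 0.752, limma), 2 of 4 had an unadjusted p under 0.05, and 0.0751% of all genes were called lower and 0.00835% higher. The mean level of *ato* itself was 12.44 ± 0.20 (SD, n = 3) in Gal4/7 × UASato and 11.44 ± 0.17 (SD, n = 3) in atoGal4 × UASato.

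With both drivers joined as the study did, the 6 Ato GOF arrays gave *RapGAP1* higher by 0.52 (SE 0.07, adjusted p = 0.00277) and *DAAM* higher by 0.28 (SE 0.06, adjusted p = 0.033), 2 of 4 genes against 0.943% of all genes. *siz* differed by 0.27 (SE 0.07, adjusted p = 0.112) and *Dscam1* by 0.61 (SE 0.14, adjusted p = 0.0638). The call of *DAAM* was lost in 8 of the 14 fits that leave out 1 array. Set against the Ato LOF arrays, with no control in the fit, all 4 genes were higher in Ato GOF without overlap, as were 17.5% of all genes. *DAAM* was higher by 1.41 (SE 0.13, adjusted p = 0.000115), *RapGAP1* by 1.34 (SE 0.09, adjusted p = 2.71e-05), *Dscam1* by 1.33 (SE 0.22, adjusted p = 0.0028) and *siz* by 0.87 (SE 0.11, adjusted p = 0.000718). In that fit 15.8% of all genes were called higher.

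**Figure D2:**
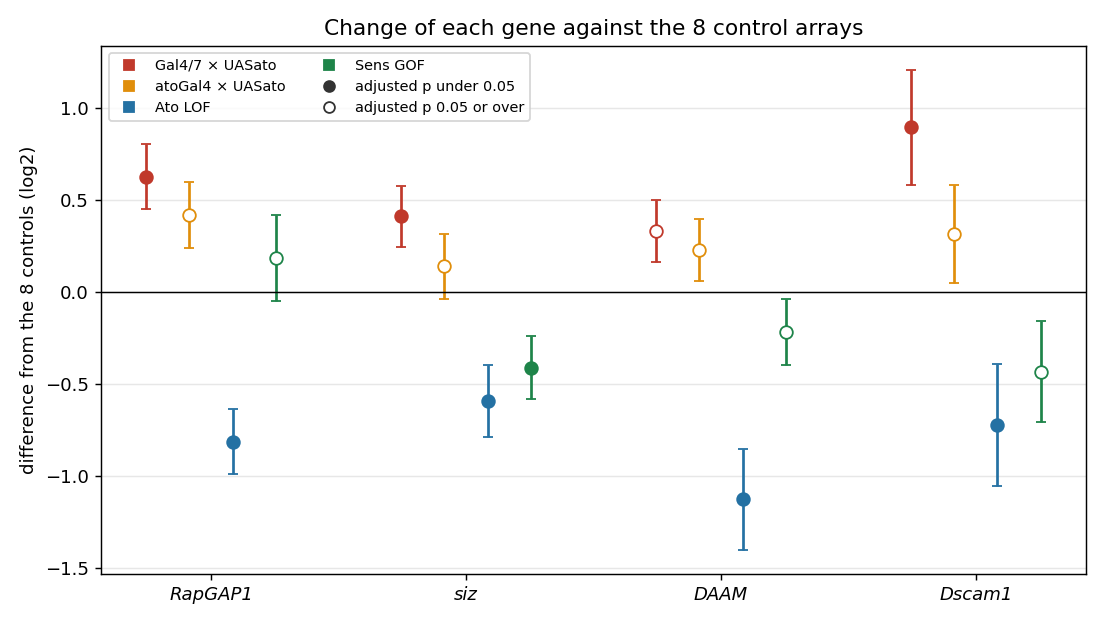
Difference of each perturbed line from the 8 control arrays for the 4 genes, on the log2 scale. Bars are 95% intervals from limma, and filled points have an adjusted p under 0.05. Ato LOF (blue) is below 0 with a filled point for all 4 genes, and in Sens GOF (green) *RapGAP1* at 0.18 is the only gene above 0.

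In Sens GOF 1 of the 4 genes was lower than in the controls and 0 were higher by limma, where 1.7% of all genes were called higher; 3 of 4 had an unadjusted p under 0.05, all with lower means than the controls. *siz* measured 9.69, 9.62 and 9.75, below every control, and fell by 0.41 (SE 0.08, adjusted p = 0.0189), or 1.33-fold. With Sens GOF arrays 1 and 2 as 1 array its difference was -0.39 and the call was lost (adjusted p = 0.103). *Dscam1* measured 8.76, 8.79 and 8.97, low beside all controls but CantonS array 1, a difference of -0.43 (SE 0.12, adjusted p = 0.0828). Without that CantonS array it passed (adjusted p = 0.015), and with arrays 1 and 2 as 1 array it was -0.40 (adjusted p = 0.289). *DAAM* measured 9.73, 9.90 and 9.74, overlapping the low end of the controls, a difference of -0.22 (SE 0.08, adjusted p = 0.171), or -0.23 with arrays 1 and 2 as 1 array (adjusted p = 0.336). That count of 1 stands beside 2.21% of all genes and 4.37% of the bright ones. Every Sens GOF array lay below every control for 1 of 4 genes and for 4.67% of all genes. The summed level of the R8 and neuron markers, which include *sens*, lay between 13.06 and 13.33, with 1 of 9 higher and 2 lower, and 2 of 5 eye disc markers were lower. For 3 antennal disc markers the sum lay between 9.73 and 9.90, below every control, and 1 of the 3, *Dll*, was lower by 0.64 (SE 0.12, adjusted p = 0.0193). With arrays 1 and 2 as 1 array, limma called 0 of 3 antennal disc markers (*Dll* at adjusted p = 0.0846) and 0 of 5 eye disc markers. At an unadjusted p under 0.05 there were then 2 of 3 and 3 of 5. Of the 9 markers of R8 and neurons 1 was then higher and 1 lower. Their part in these levels was not tested.

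*RapGAP1* was the gene whose probe sets disagreed in Sens GOF. Its brightest probe set measured 9.52, 9.62 and 9.13, with array 3 below the controls' median and the others above every control, and the difference of 0.18 (SE 0.11) did not pass (adjusted p = 0.387), nor did that of 0.11 with arrays 1 and 2 as 1 array (adjusted p = 0.773). The dim probe set 1626479_at measured 4.86, 4.89 and 4.97, below every control at 5.40 to 6.20, and fell by 0.91 (SE 0.13, adjusted p = 0.00741), or 1.88-fold. With the mean of arrays 1 and 2 the fall was 0.90 (adjusted p = 0.0495). Without Sens GOF array 1 the call was lost (limma adjusted p = 0.051). In Ato LOF the same probe set measured 5.26, 5.24 and 5.22, also below every control, and in Ato GOF it ranged from 5.24 to 6.12, overlapping the controls. Of the 9 probe sets 2 were lower in Sens GOF, this one and the brightest of *siz*, against 2.39% of all probe sets. The remaining probe sets of *RapGAP1*, 1634825_at and 1640847_at, did not pass in Sens GOF, with differences of -0.37 (SE 0.15) and -0.06 (SE 0.11). Which transcripts of *RapGAP1* each probe set reads was not analysed here.

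**Figure D3:**
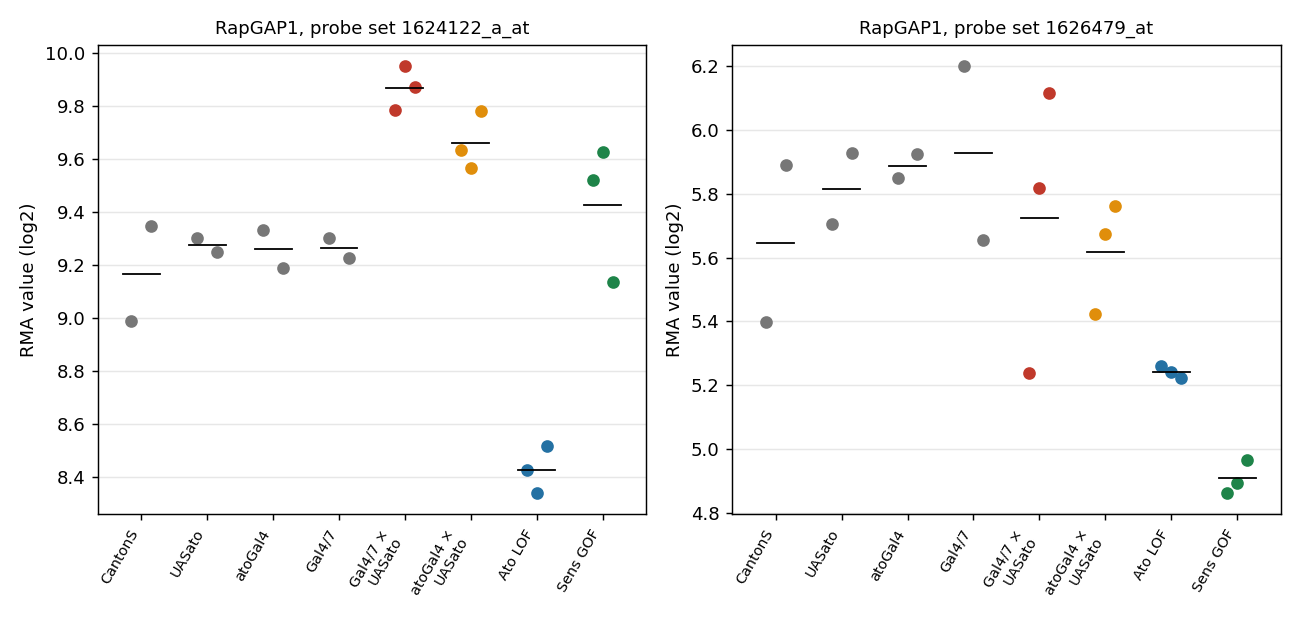
Deposited log2 values of the 2 brightest *RapGAP1* probe sets on the 20 arrays, by line, with line means as black bars. In Sens GOF (green) 1624122_a_at reads 9.13 to 9.62, among or above the controls, while 1626479_at reads 4.86 to 4.97, below all of them.

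Sens and Ato were also compared under the same atoGal4 driver, with no control array in the fit. *Dscam1* was lower in Sens GOF than in atoGal4 × UASato by 0.75 in log2 units (SE 0.09, adjusted p = 0.011), *siz* by 0.55 (SE 0.08, adjusted p = 0.0198) and *DAAM* by 0.45 (SE 0.08, adjusted p = 0.029). The arrays of these 3 genes did not overlap between the lines, as was so in this direction for 17.4% of all genes. *RapGAP1* differed by -0.23 (SE 0.14, 95% interval -0.57 to 0.11, adjusted p = 0.402). The calls, 3 of 4 genes, stand beside 3.74% of all genes called lower. With Sens GOF arrays 1 and 2 as 1 array the differences were -0.72, -0.53 and -0.46, and 0 of 4 genes passed (adjusted p = 0.0603 to 0.0922 for these 3). Without either of those arrays 0 of 4 passed as well.

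Across the 8 lines the 4 genes had the same lines at both ends of their order and differed in between. Ato LOF had the lowest mean of every gene, and Gal4/7 × UASato had the highest mean, followed by atoGal4 × UASato. Sens GOF ranked 6 from the lowest for *RapGAP1* and 2 for the other genes, and Gal4/7 ranked from 3 for *siz* and *DAAM* to 6 for *Dscam1*. Neighbouring lines often overlapped: for *RapGAP1* the 4 control lines and Sens GOF formed a chain of overlapping ranges between 8.99 and 9.62, and Sens GOF also overlapped atoGal4 × UASato. For *siz* the range of Ato LOF overlapped that of Sens GOF, and for *DAAM* it was apart from all others. The control lines differed most for *Dscam1*, with means from 9.01 in CantonS to 9.51 in Gal4/7, a spread of 0.49 (limma F across lines, adjusted p = 0.476). Of the 4 genes 0 were called between control lines, 1 had an unadjusted p under 0.05, and 0.818% of all genes were called. The line means of the 4 genes correlated with each other at r = 0.80 to 0.92 over 8 lines, values that share the same arrays. The study drew all 4 genes from the Ato GOF arrays, which are among these lines, so the correlation is a description.

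The genes whose line means were most like those of each member were taken as the 3 with the highest Pearson r over the 8 lines. For *RapGAP1* these were *Ank2*, an ankyrin that links membrane proteins to spectrin (r = 0.99), *Arpc5*, a subunit of the Arp2/3 complex (r = 0.99), and *mdu* (r = 0.99), itself a predicted target of the study. For *siz* they were *ssp2* (r = 0.99), *CG6329* (r = 0.99) and *shot*, a spectraplakin that joins actin and microtubules (r = 0.99). For *DAAM* they were *X11Lbeta* (r = 0.998), *Dnz1*, a palmitoyltransferase (r = 0.99), and *cpo*, an RNA-binding protein (r = 0.99). For *Dscam1* they were *csw*, a tyrosine phosphatase of receptor signaling (r = 0.98), *Tmf*, a golgin (r = 0.97), and *Unc-76*, an adaptor of kinesin (r = 0.97). *X11Lbeta* is a predicted target of the study too. *Ank2*, *Arpc5*, *mdu*, *CG6329* and *X11Lbeta* are in the set that the study drew from the Ato GOF arrays, some under older names. These include all 3 genes most like *RapGAP1*, so their shared rise in Ato GOF is a description. Genes of like pattern differed in the size of their response. The line means of *cpo* ran from 7.72 in Ato LOF to 11.37 in Gal4/7 × UASato, and those of *Dnz1* only from 9.10 to 9.58.

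Partners of the 4 genes were followed in lists grouped by function. Many of the GTPases themselves, such as *Rap1*, *Arf6*, *Rho1*, *Rac1* and *Cdc42*, have no probe set that names only them, so the lists hold mostly their regulators and effectors. Of 11 measured genes around Rap, 6 were lower in Ato LOF, 1 was lower in Sens GOF, and by limma 0 passed with either Ato driver (1 with Gal4/7 and 0 with atoGal4 at an unadjusted p under 0.05), where *RapGAP1* differed by 0.63 and 0.42. *Epac*, an exchange factor that activates Rap1 in response to cAMP, fell by 1.63 in Ato LOF (SE 0.29, adjusted p = 0.00425). *cno*, the Rap1 effector Canoe at adherens junctions, fell by 0.84 (SE 0.19, adjusted p = 0.0169), and the adhesion molecule *ed* by 0.52 (SE 0.13, adjusted p = 0.0269). The Ras inhibitor *Nf1* fell by 0.40 in Ato LOF (SE 0.08, adjusted p = 0.00856) and by 0.46 in Sens GOF (SE 0.10, adjusted p = 0.0265).

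Of 10 genes around Arf, 3 were lower in Ato LOF, 1 was higher in Sens GOF, and by limma 0 passed with either Ato driver (0 with Gal4/7 and 1 with atoGal4 at an unadjusted p under 0.05). The Arf GAP *CenG1A* is a predicted target that the study drew from the Ato LOF arrays as a lower gene, so its fall there is a description. It fell by 1.06 in Ato LOF (SE 0.15, adjusted p = 0.00123) and *drongo*, also an Arf GAP, by 0.65 (SE 0.11, adjusted p = 0.00336). *Efa6*, an exchange factor for Arf6 like *siz*, fell by 0.59 (SE 0.10, adjusted p = 0.00255), the same size as the fall of *siz*. *ArfGAP1* rose by 0.36 in Sens GOF (SE 0.06, adjusted p = 0.00989), where *siz* fell by 0.41.

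Of 16 formins and actin regulators, 9 were lower in Ato LOF, 3 were higher with Gal4/7 × UASato, 1 was higher with atoGal4 × UASato and 1 was lower in Sens GOF. The formin *Fhos* is a predicted target of the study. It rose by 0.99 with Gal4/7 × UASato (SE 0.15, adjusted p = 0.00491) and fell by 1.27 in Ato LOF (SE 0.14, adjusted p = 0.000293). *spir*, an actin nucleator and a predicted target too, rose by 0.89 (SE 0.17, adjusted p = 0.0182) and fell by 0.67 (SE 0.20, adjusted p = 0.0462) in the same comparisons. *qua*, a relative of the actin bundler villin, fell by 4.26 in Ato LOF (SE 0.29, adjusted p = 1.11e-05) and rose by 0.90 with atoGal4 × UASato (SE 0.12, adjusted p = 0.0356). *ena*, which extends actin filaments, fell by 0.83 in Ato LOF (SE 0.11, adjusted p = 0.000979).

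Of 13 genes of the Dscam family and its guidance partners, 8 were lower in Ato LOF, 2 were higher with Gal4/7 × UASato, 3 were lower in Sens GOF, and by limma 0 passed with atoGal4 × UASato (0 at an unadjusted p under 0.05). The paralog *Dscam2* rose by 1.02 with Gal4/7 × UASato (SE 0.22, adjusted p = 0.0428), fell by 1.56 in Ato LOF (SE 0.21, adjusted p = 0.000973) and fell by 1.24 in Sens GOF (SE 0.21, adjusted p = 0.013). *Dscam3* rose by 1.44 (SE 0.24, adjusted p = 0.00945) and fell by 0.72 (SE 0.21, adjusted p = 0.043) in the first 2 of these comparisons. The kinase *Abl* fell by 0.82 (SE 0.15, adjusted p = 0.00592) and *fra*, the Netrin receptor Frazzled, by 0.80 (SE 0.16, adjusted p = 0.0074) in Ato LOF.

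The shares of these lists called lower in Ato LOF, 6 of 11, 3 of 10, 9 of 16 and 8 of 13, stand beside the 10.1% of all genes, with list medians of -0.46, -0.17, -0.32 and -0.61. Many list genes are bright, and of the genes that average at or above 9 on the log2 scale 18.6% were called lower. With Gal4/7 × UASato the 3 of 16 and 2 of 13 called higher stand beside 1.96% of all genes, and the 1 of 16 with atoGal4 × UASato beside 0.0835%. Among the genes behind these counts, *Fhos*, *spir* and *qua* are in the set that the study drew from the Ato GOF arrays. Their rise is therefore a description as well. The same holds for the fall of *CenG1A* in Ato LOF, since the study drew that gene from the Ato LOF arrays. In Sens GOF the 1 of 11, 1 of 16 and 3 of 13 called lower stand beside 2.21%, and the 1 of 10 called higher beside 1.7%. With Sens GOF arrays 1 and 2 as 1 array, limma called 0 genes of these 4 lists, where 0.342% of all genes were called lower and 0.259% higher. At an unadjusted p under 0.05 there were then 5 of 11, 4 of 10, 4 of 16 and 4 of 13, and the adjusted p was 0.075 for *Nf1*, 0.0654 for *ArfGAP1*, 0.0588 for *Dscam2* and 0.196 for *Abl*. The predicted Ato targets that the study tested with reporters include 26 other measured genes, *ato* itself left out because the transgene carries it. Further predicted targets, such as *Fhos* and *CenG1A*, are outside that list. Of the 26 genes 23 were lower in Ato LOF (10.1% of all genes), 18 were higher with Gal4/7 × UASato (1.96%) and 4 were higher with atoGal4 × UASato (0.0835%). In Sens GOF 2 were lower (2.21%), 0 of them by limma with arrays 1 and 2 as 1 array (both at an unadjusted p under 0.05), and the 1 higher was *sens*, the gene on that transgene. Their median change was -1.32 in Ato LOF and 0.87 with Gal4/7 × UASato, compared with -0.77 and 0.52 for the 4 genes. The study chose those genes on the same arrays.

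**Figure D4:**
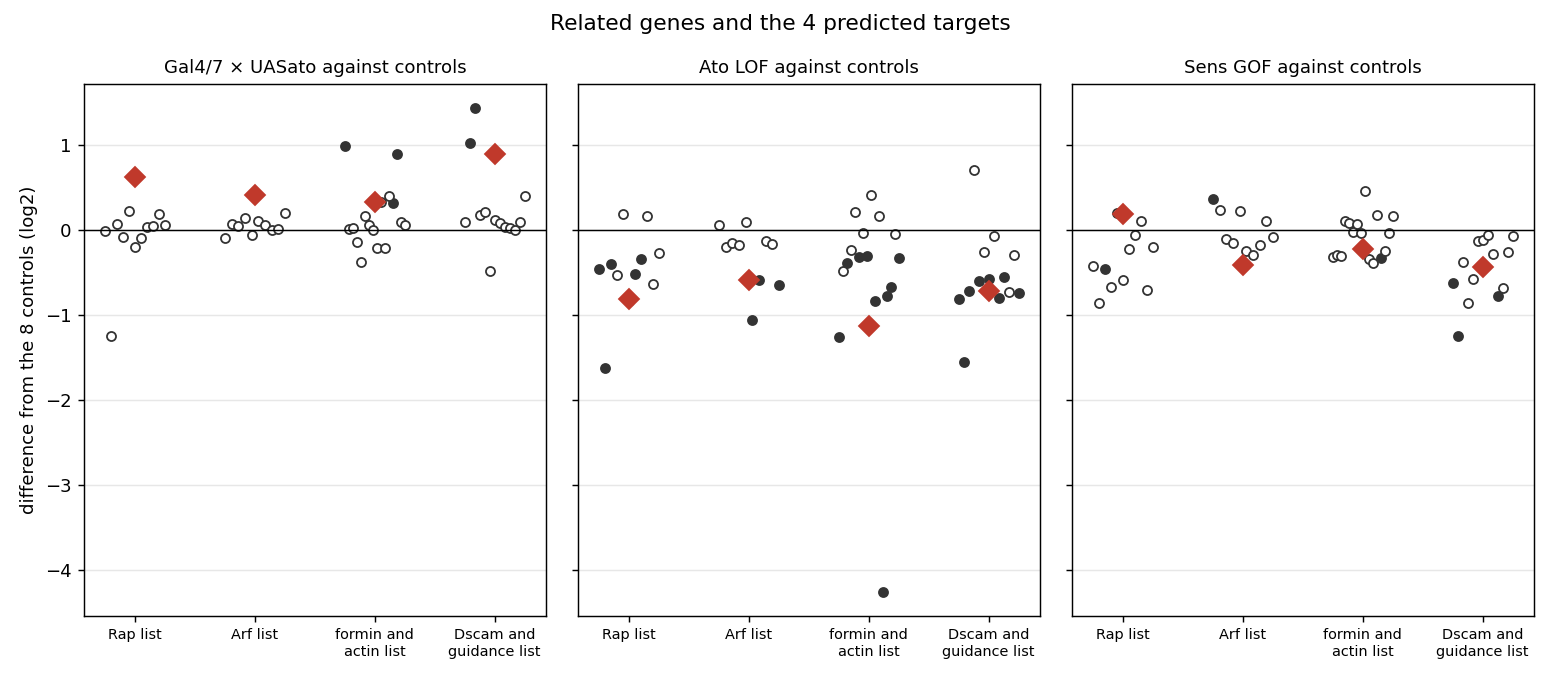
Log2 difference from the 8 controls for the genes of the 4 lists (circles, filled at an adjusted p under 0.05) and for *RapGAP1*, *siz*, *DAAM* and *Dscam1* (red diamonds, from left to right, each over the list of its partners). Filled circles in Ato LOF all lie below 0, with *qua* at -4.26 as the lowest, and few circles are filled with Gal4/7 × UASato or in Sens GOF.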

How the data were processed

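The deposited values are on a log2 scale and were made by the authors with RMA, which removes background, brings the arrays to 1 distribution and joins the probes of each set into 1 value. Its version is not given in the sources used here, and other preprocessing of these arrays was not used here. Of 18952 probe sets, 183 Affymetrix controls were left out. Of the others 13647 name 1 gene, 402 name several and 4720 are unnamed in the array's annotation. Where a gene had several probe sets, the one with the highest average was used.

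The arrays of a comparison entered a linear model without covariates (limma 3.58.1, lmFit and eBayes, R 4.3.3). Its two-sided p-values got a Benjamini-Hochberg adjustment over all 18769 probe sets. A call is an adjusted p under 0.05. Fits were tested on simulated data. The number of arrays limits the precision. Replicate numbers come from the titles, since the replicate field reads 1 for both arrays of a control line. The study names no controls for Ato LOF and Sens GOF, and all 8 were used.

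The members and the gene lists were chosen with earlier results of these data known. Named are all member probe sets, up to 4 genes of a list with the largest called change, the 3 genes most like each member, and *ato*, *sens* and *elav*. The summed level of a marker list is the log2 of its summed linear values. Alternatives were a filter on dim probe sets, the mean of all probe sets of a gene, another quantile normalization, centring on array medians, eBayes with a trend, array weights, a stricter threshold, 1 fit of all arrays, the replicate number or the line as a block, the nearest controls, the methods' t-test and leaving out each array. The mean of Sens GOF arrays 1 and 2 and leaving *ato* out of the predicted targets are alternatives chosen after seeing the data. Plots were drawn with matplotlib 3.10.9 in Python 3.11.15.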

Additional observations from a re-analysis of the deposited data

Results flagged for a closer look

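For *RapGAP1* (1624122_a_at) CantonS array 1 at 8.99 stood apart from the other 7 controls, the nearest of which measured 9.19; this gap is 0.557 of the whole range of the 8 controls. In 18 groups looked at, chance flags about 1 in 20. Without that array the change of *RapGAP1* was -0.85 in Ato LOF (adjusted p = 3.43e-05) and 0.59 with Gal4/7 × UASato (adjusted p = 0.00071).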

How the results depend on the processing

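The count of 4 genes lower in Ato LOF became 0 with the CantonS controls alone, 3 at an adjusted p under 0.01 and 3 to 4 without 1 array, and was 4 under the other alternatives. The counts of 4 genes higher in Ato GOF than in Ato LOF and of 0 between drivers and between control lines were the same under every alternative run. With Gal4/7 × UASato, 3 genes became 1 with the mean of all probe sets (which joins bright and dim ones), 1 with the replicate block, 1 with the nearest controls and 1 to 4 without 1 array. With atoGal4 × UASato, 0 became 1 with array weights (*RapGAP1*, adjusted p = 0.0473). For Ato GOF, 2 became 1 with the mean of all probe sets, 1 at an adjusted p under 0.01, 1 with the replicate block, 1 with no CantonS, 1 with the line as a random block, 1 to 3 without 1 array, and 4 by the methods' t-test at its unadjusted threshold. For Sens GOF, 1 lower became 4 called with array weights (3 lower, and *RapGAP1* higher by 0.26, adjusted p = 0.0166), 2 in 1 fit of all arrays, and 0 at an adjusted p under 0.01, with the replicate block, with atoGal4 as the only control or with arrays 1 and 2 averaged; without 1 array it was 0 to 2. For Sens GOF against atoGal4 × UASato, 3 became 0 at an adjusted p under 0.01, 1 with the replicate block, 0 with arrays 1 and 2 averaged and 0 to 3 without 1 array. In the fits for Sens GOF with 0 calls, 2 or 3 of 4 genes had an unadjusted p under 0.05. Counts that moved by up to 1.5 times are not listed. Only *RapGAP1* in Sens GOF turned its direction among the brightest probe sets, to -0.29 (adjusted p = 0.0704) with the mean of all its probe sets, 3 of 4 being dim. The cause of the other changes was not tested. Of 32 results for dim probe sets that no setting called, 26 of 609 alternatives had the other sign, by at most 0.208. Replicate numbers did not pair the arrays: deviations with the same number correlated at -0.40 to 0.53, and 9 of 20 arrays correlated best with their own number.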
